A study of Ovis aries with 40 samples.

Results

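Distal lung tissue of fetal American Romney sheep was compared between 65 and 80 days of gestation in wild-type (WT) animals and in *CFTR*-/- animals (CF), which lack the chloride channel that is lost in cystic fibrosis. The comparison used every distal library of those ages, 8 of the 40 libraries of the series, with 2 libraries in each of 4 groups (WT at 65 days, WT at 80 days, CF at 65 days and CF at 80 days). The question was which genes differed between the ages in both genotypes, so WT and CF were used jointly, 4 libraries against 4, with genotype as a covariate. WT fetuses were bred naturally. CF fetuses were clones made by somatic cell nuclear transfer from 1 line of male fetal fibroblasts in which exon 2 of *CFTR* had been targeted, so all 4 CF libraries stand for 1 donor genome, and the genotypes also differ in how the fetuses were produced. Each library is labelled as a different animal. The animal names share a stem within 3 of the 4 groups, with no stated meaning, and the name of 1 WT animal at 65 days is also given to a CF animal of a later age. The p-values therefore measure the spread between these libraries, whatever kinship lies behind it.

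The fetal lung grows as a tree of epithelial tubes in mesenchyme. Tips that carry the factor SOX9 branch in response to FGF10 from the mesenchyme, and cells behind the tips become airway cells or, in the distal lung, alveolar type 2 cells, which make surfactant, and alveolar type 1 cells, which form the thin surface for gas exchange. Before birth the epithelium secretes chloride and with it the liquid that fills the lung. Near birth it turns to sodium uptake through the epithelial sodium channel ENaC.

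Read totals per library ran from 33049603 to 43700012 in WT and from 85773994 to 103139483 in CF, so depth went with genotype but not with age. Mitochondrial genes took 1.74 to 2.36% of reads. In CF replicate 2 at 65 days 82.2% of low counts (1 to 20) were even numbers, against 75.6 to 77.9% in the other 7 libraries. The labels call the tissue epithelial, but whole pieces of frozen distal lung were homogenized, and the markers were those of mixed tissue. In normalized read counts (CPM, counts per 1000000 reads, scaled by the TMM method of edgeR over the 8 libraries), the lung epithelial factor *NKX2-1* lay between 64.4 and 124, the epithelial adhesion gene *EPCAM* between 117 and 222, the lung mesenchyme factor *TBX4* between 104 and 170, the endothelial gene *PECAM1* between 217 and 281 and the cartilage collagen *COL2A1* between 263 and 482. The ciliated cell factor *FOXJ1* ranged from 9.27 to 73.0 CPM, highest in WT replicate 1 at 65 days. The summed CPM of 39 motile cilia genes was 948 in that library and 192 to 626 in the other 7. Of the heart genes, *NPPA* had at most 2 reads in any library, while *MYL2* ranged from 0 to 4.72 CPM, *TNNI3* from 0 to 7.33 and *MYH7* from 0.403 to 1.25. In bulk tissue, fewer cells of a type and less RNA per cell cannot be told apart, and this holds for every gene group below.

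Across 18812 genes tested, no gene passed an adjusted p of 0.05 for age in edgeR's quasi-likelihood test (0%), while 3341 had an unadjusted p below 0.05 and DESeq2 called 566 on the same design. The smallest adjusted p in edgeR was 0.0580, and the genes that shared it included *SERPINF1*, *SFTPB*, *GPRC5A*, *KIAA1324L* and *SPRY3*. Of the genes with an unadjusted p below 0.05, 1575 (8.37%) were higher at 80 days and 1766 (9.39%) lower. Without WT replicate 1 at 65 days these genes together numbered 5222, and without CF replicate 1 at 80 days they numbered 1439, without CF replicate 2 at 80 days 1704 and without CF replicate 2 at 65 days 2213. DESeq2 called 258 genes higher (1.37%) and 308 lower (1.64%).

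A simpler count used no model. In 1380 genes (7.34%) both libraries at 80 days lay above both at 65 days in WT and again in CF, and in 1368 genes (7.27%) both lay below. Such genes are called separated here. With the scaling taken over all 20 distal libraries of the series the split was 1636 to 1055. WT and CF separated in opposite directions in 1416 genes.

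The shared test leaves any difference between WT and CF in the size of the change in its error. A fit with 1 mean for each of the 4 groups, which takes that difference out, called 26 genes (0.138%), 13 higher and 13 lower at 80 days, and 25 of them were also called by DESeq2. Those higher in this fit included *SFTPB*, *SLC34A2*, *LAMP3*, *LRRK2*, *GPRC5A*, *LAMA3*, *CPM*, *KIAA1324L*, *SPRY3*, *TMEM229B*, *VGLL3* and *ASXL3*. Lower were *IGFBP2*, *SPP1*, *CDKN1C*, *RTL1*, *MYL4*, *SERPINF1*, *PTGS1*, *CRMP1*, *CSF1R*, *TMEM132C* and 3 genes named by locus number. In 24 of these 26 genes all 4 libraries at 80 days lay beyond all 4 at 65 days. Over all 18812 genes, all 4 lay above in 669 and below in 466. The 26 genes were called from the same libraries, so their separation follows in part from that choice. Counts of members in the lists below are for an unadjusted p below 0.05 in the shared fit, and many counts of 5 or fewer moved by more than 1.5 times when a single library was left out. Log2 fold changes below are for 80 against 65 days, positive where 80 days was higher, with the standard error (SE) of the shared fit on 4 libraries per age. The median over all tested genes was -0.04, and each count of list members stands against the shares of all genes, 8.37% higher and 9.39% lower, and 7.34% separated upward and 7.27% downward.

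**Figure D1:**
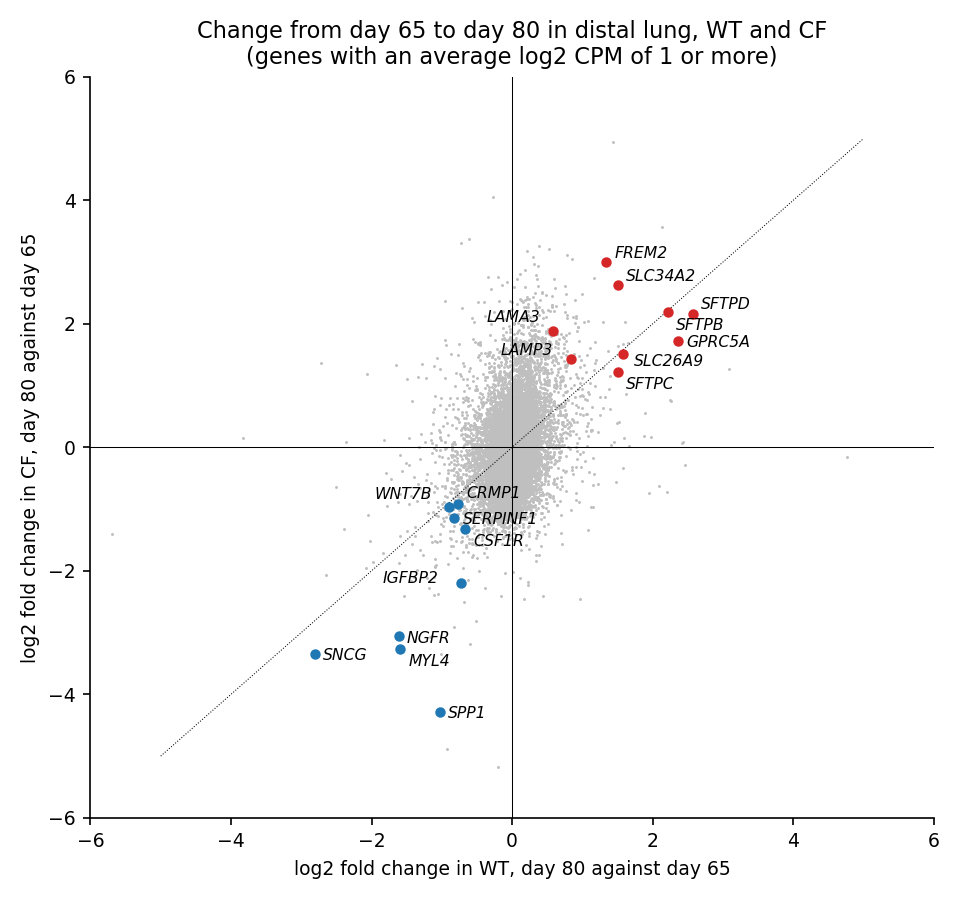
Each point is 1 of 13980 genes whose average log2 CPM was at least 1, placed by its log2 fold change at 80 against 65 days in WT (horizontal axis) and in CF (vertical axis), with named genes in red where higher and blue where lower, and equal change on the dotted line. The cloud is taller than it is wide (root mean square change 0.660 in CF and 0.316 in WT), and *SFTPB*, *SFTPD*, *GPRC5A* and *SNCG* lie far from the center along the dotted line.

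Genes of surfactant and alveolar type 2 cells stood higher at 80 days. Of 22 tested, 14 were higher and none lower at the unadjusted limit, against 8.37% and 9.39% of all genes, 13 were separated upward, and the median log2 fold change was 0.67 (0.45 in WT and 0.98 in CF). DESeq2 called 10 of them higher. The summed CPM of the list was 1367 to 1770 in the 4 libraries at 65 days and 2741 to 3595 in the 4 at 80 days, with no overlap. The sum weighs members by their level, so abundant ones such as *SFTPC* and *LAMP3*, described below, count more than scarce ones. Leaving out each library in turn gave 10 to 15 higher members.

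*SFTPB* (chromosome 3, 57216253-57228146, Oar_v4.0) encodes surfactant protein B, which spreads the lipid film. It had 31.1 and 53.0 CPM in WT and 36.7 and 37.8 in CF at 65 days, and 267 and 123 in WT and 163 and 179 in CF at 80 days. Every library at 80 days was above every library at 65 days, and the log2 fold change was 2.21 ± 0.25, with 2.21 in WT and 2.20 in CF. *SLC34A2* (chromosome 6, 44958089-44984613) encodes the phosphate cotransporter of type 2 cells. Its values were 57.3 and 86.1 CPM in WT and 82.3 and 74.7 in CF at 65 days, then 202 and 204 in WT and 391 and 582 in CF at 80 days. The groups did not overlap at either genotype, and the log2 fold change of 2.07 ± 0.26 was made up of 1.5 in WT and 2.63 in CF.

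*SFTPC* (chromosome 2, 43230598-43233947), the type 2 cell's own surfactant protein, was already abundant at 65 days. It had 194 and 376 CPM in WT and 198 and 292 in CF, and at 80 days 857 and 760 in WT and 472 and 668 in CF, a log2 fold change of 1.36 ± 0.23. *SFTPD* (chromosome 25, 35060767-35150456), a collectin of innate defense, was scarce at 65 days. It had 1.26 and 0.461 CPM in WT and 3.0 and 3.79 in CF at 65 days, and 6.26 and 4.02 in WT and 9.79 and 20.7 in CF at 80 days, a log2 fold change of 2.35 ± 0.38. Neither gene passed the adjusted limit in either edgeR fit, whereas DESeq2 called both.

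*SFTPA1*, the other surfactant collectin, was low. Its level was 0 in WT replicate 1 at 65 days, where 3 reads would be 0.0822 CPM, and 0.205 to 0.238 in the other 3 libraries of that age. At 80 days it had 1.20 and 0.189 CPM in WT and 1.25 and 2.65 in CF, so 1 WT library at 80 days lay within the range of the 65-day libraries. *LAMP3*, a membrane protein of the lamellar bodies that store surfactant, stood at 318 and 366 CPM in WT and 245 and 260 in CF at 65 days, then at 667 and 556 in WT and 568 and 788 in CF, with a log2 fold change of 1.13 ± 0.17. *LRRK2*, a kinase of the same organelle system, had a log2 fold change of 1.13 ± 0.21, and *HHIP*, an inhibitor of hedgehog ligands, 0.75 ± 0.17.

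Other members of the list were flat or scattered. The lipid transporter *ABCA3* ran from 8.39 to 29.3 CPM at 65 days and from 14.6 to 23.2 at 80 days, so the ages overlapped. *NKX2-1* had a log2 fold change of 0.07 ± 0.16, with its lowest and highest values both at 80 days. The fatty acid desaturase *SCD* and the fatty acid synthase *FASN* were separated upward in both genotypes, at log2 fold changes of 1.17 ± 0.46 and 0.60 ± 0.24, and CF replicate 2 at 65 days had the lowest value of each (3.58 and 66.0 CPM).

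**Figure D2:**
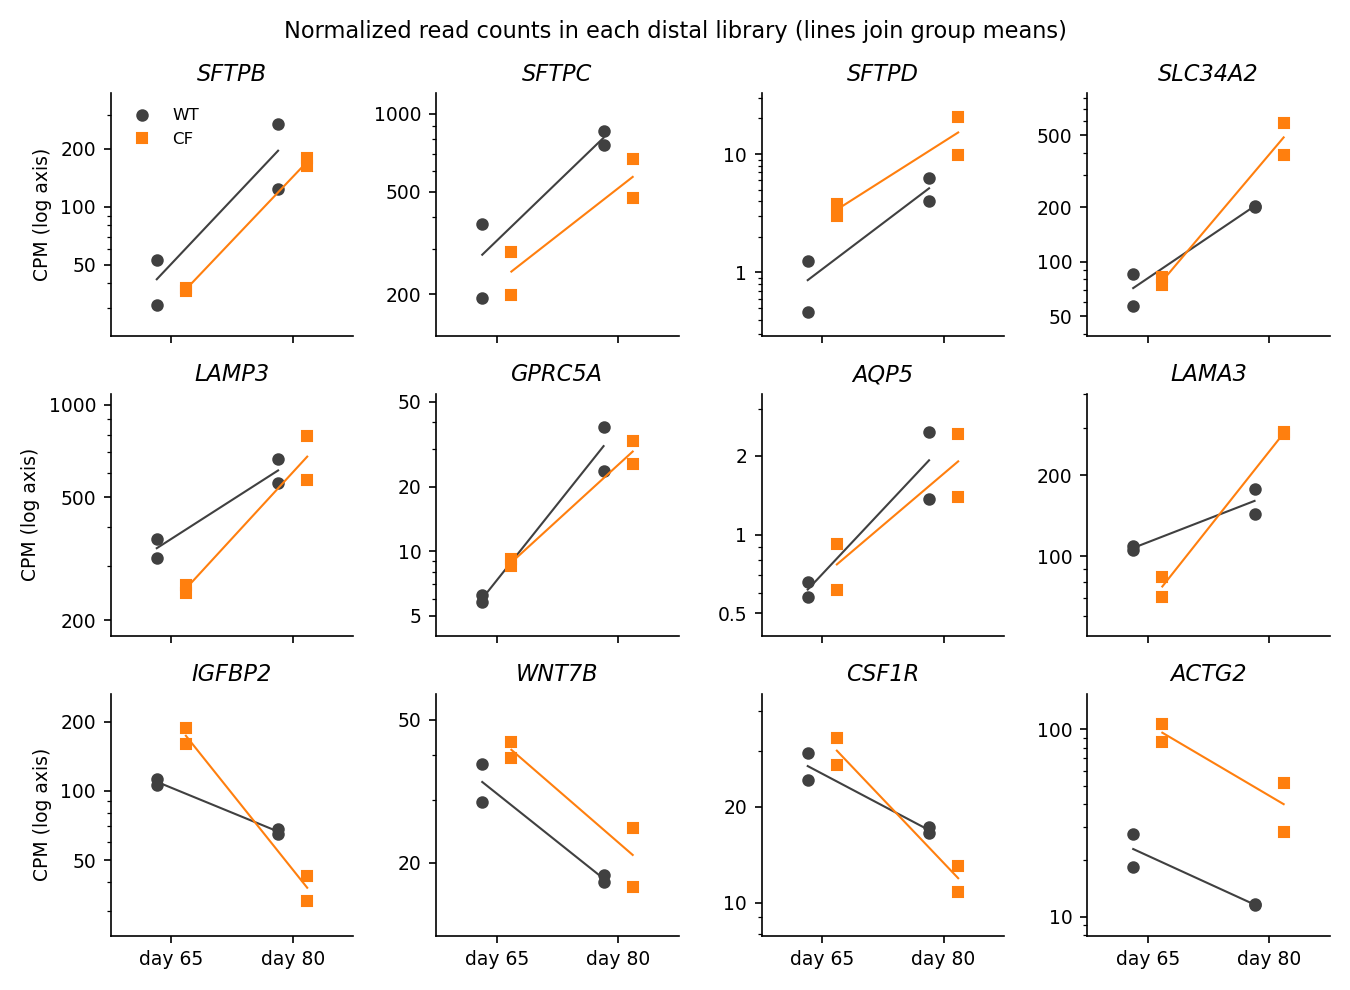
CPM of 12 genes in each of the 8 libraries at 65 and 80 days on log axes, with WT as black circles, CF as orange squares and lines joining the group means. *SFTPB*, *SLC34A2* and *GPRC5A* have every library at 80 days above every library at 65 days, whereas the 65-day CF libraries of *ACTG2* (85.2 and 107 CPM) stand above all WT libraries.

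Among alveolar type 1 genes some were higher at 80 days. Of 19 tested, 10 were higher and 1 lower, 7 were separated upward and 1 downward, and the median log2 fold change was 0.62 (0.28 in WT and 0.76 in CF). *GPRC5A* (chromosome 3, 201604050-201624307), an orphan receptor gene of alveolar epithelium, had the smallest unadjusted p of all genes. It had 5.76 and 6.25 CPM in WT and 9.16 and 8.54 in CF at 65 days, and 38.2 and 23.8 in WT and 32.8 and 25.6 in CF at 80 days. Its log2 fold change was 2.04 ± 0.21, with 2.37 in WT and 1.72 in CF.

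*AQP5*, the apical water channel of type 1 cells, was at 0.576 to 0.922 CPM in the 4 libraries at 65 days and at 1.37 to 2.47 in the 4 at 80 days, a log2 fold change of 1.46 ± 0.36. The proteoglycan gene *SPOCK2* was separated in both genotypes with a log2 fold change of 0.66 ± 0.16, and the basement membrane collagen *COL4A4* with 1.47 ± 0.39. *AGER*, a membrane receptor by which mature type 1 cells are known, was at 98.0 to 153 CPM at 65 days and at 101 to 194 at 80 days. The ages overlapped for *AGER*, and so they did for *PDPN* (72.6 to 125 and 90.9 to 215 CPM).

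The exception in the list was *IGFBP2* (chromosome 2, 217602923-217632202), which encodes an insulin-like growth factor binding protein. It had 106 and 113 CPM in WT and 161 and 187 in CF at 65 days, and 68.1 and 64.9 in WT and 33.2 and 42.5 in CF at 80 days. No library at 80 days reached the level of any at 65 days, and the log2 fold change was -1.46 ± 0.28, with -0.72 in WT and -2.20 in CF. The protein genes *IGFBP7* and *IGFBP6* were also separated downward, at -0.65 ± 0.12 and -0.53 ± 0.17. Of 16 genes of the insulin-like growth factor system, 1 was higher and 3 were lower at an unadjusted p below 0.05.

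The branching tip had members above the unadjusted limit in 1 direction and a median near 0. Of 21 tested, 4 were higher (against 8.37% of all genes) and none lower, 3 were separated upward (against 7.34%), and the median log2 fold change was 0.07. The 4 were *CPM* (here the carboxypeptidase M gene, a surface marker of lung progenitors) at 0.87 ± 0.18, the FGF receptor *FGFR2* at 0.37 ± 0.10, and *ETV5* and *SPRY4*, which are induced by FGF signaling, at 0.51 ± 0.15 and 0.44 ± 0.15. *SOX9* itself was at 94.9 and 127.1 CPM in WT and 141 and 133 in CF at 65 days, and at 101 and 78.4 in WT and 169 and 176 in CF at 80 days. Its log2 fold change was 0.01 ± 0.16, with -0.31 in WT and 0.33 in CF.

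On the mesenchymal side of the same exchange, *FGF10* (chromosome 16, 30460032-30555613) had 43.1 and 47.2 CPM in WT and 28.8 and 14.6 in CF at 65 days, then 66.3 and 63.8 in WT and 73.5 and 57.8 in CF. All 4 libraries at 80 days were above all 4 at 65 days, with a log2 fold change of 1.06 ± 0.27. Of 28 genes of the distal mesenchyme and its signals, 2 were higher and 5 lower, and the median was 0.03. *WNT7B*, a ligand made by lung epithelium, had 37.6 and 29.5 CPM in WT and 43.4 and 39.1 in CF at 65 days. At 80 days it had 17.7 and 18.5 in WT and 17.1 and 25 in CF, below every 65-day library, with a log2 fold change of -0.93 ± 0.15. In the list of 54 WNT and BMP genes to which it belongs, 7 were higher and 6 lower, with 12 higher without WT replicate 1 at 65 days, 3 higher without WT replicate 1 at 80 days, 4 higher without CF replicate 2 at 65 days, and 2 to 3 lower without CF replicate 1 at 65 days or either CF library at 80 days. *ZNRF3*, which removes WNT receptors from the surface, was separated upward at 0.97 ± 0.25, and the WNT inhibitor *SFRP1* downward at -1.50 ± 0.41.

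Some basement membrane genes were higher at 80 days. Of 19 tested, 7 were higher (against 8.37% of all genes) and 1 lower, 6 were separated upward (against 7.34%) and 1 downward, and the median log2 fold change was 0.35 (0.19 in WT and 0.59 in CF). *LAMA3* (chromosome 23, 32948575-33206169), the alpha chain of epithelial laminin, had 106 and 109 CPM in WT and 83.7 and 70.8 in CF at 65 days, and 177 and 144 in WT and 284 and 288 in CF at 80 days. Its log2 fold change was 1.24 ± 0.25, with 0.58 in WT and 1.89 in CF. The collagen IV chains *COL4A5* and *COL4A6* were separated upward at 0.62 ± 0.16 and 0.50 ± 0.14, and *LAMA1*, the laminin chain of the early embryo, was separated downward at -0.50 ± 0.17. These transcripts are long in summed exon length, the measure of gene length used here. With the trend of each library with gene length removed 5 members were higher and 2 lower, and the median was 0.17 (0.31 in CF). *FREM2*, which encodes a matrix protein at the surface of epithelia, was at 41.9 and 21.3 CPM in WT and 9.05 and 4.08 in CF at 65 days, and at 87.3 and 72.1 in WT and 65.3 and 40.0 in CF at 80 days, a log2 fold change of 2.17 ± 0.43.

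Genes for chloride, sodium and water transport were higher at 80 days or overlapped between the ages. Of 21 tested, 6 were higher and none lower, 5 were separated upward, and the median log2 fold change was 0.20 (0.41 in WT and 0.06 in CF). *SLC26A9* (chromosome 12, 2935470-2963781), an epithelial chloride transporter, was at 7.46 and 7.14 CPM in WT and 17.3 and 19.8 in CF at 65 days, and at 17.2 and 26.4 in WT and 36.3 and 69.7 in CF at 80 days. It was separated in each genotype, though the lowest WT value at 80 days lay below both CF values at 65 days, and the log2 fold change was 1.55 ± 0.22. *SLC12A2* (chromosome 5, 23258466-23352403), the cotransporter that loads chloride into the cell, had 173 and 203 CPM in WT and 201 and 197 in CF at 65 days, and 288 and 284 in WT and 291 and 343 in CF at 80 days. Its log2 fold change of 0.64 ± 0.10 was nearly the same in WT (0.60) and CF (0.67).

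*CFTR* (chromosome 4, 50644000-50864925) had 37.5 and 30.5 CPM in WT and 21.0 and 21.2 in CF at 65 days, and 43.9 and 46.3 in WT and 29.8 and 36.4 in CF at 80 days. It was separated in each genotype with a log2 fold change of 0.53 ± 0.12. CF libraries retained reads over the gene, and counts summed over the whole gene cannot check an edit in exon 2. The ENaC subunit gene *SCNN1A* was low, at 0.503 to 1.59 CPM at 65 days and 1.68 to 3.07 at 80 days, with a log2 fold change of 1.12 ± 0.42. *SCNN1B* and the calcium-activated chloride channel gene *ANO1* had log2 fold changes of 0.25 ± 0.27 and 0.19 ± 0.17, and their ages overlapped in CF. *SCNN1A* is also counted in the type 2 list and *AQP5* in the type 1 list.

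Some contractile genes of smooth muscle were lower at 80 days. Of 22 tested, 6 were lower (against 9.39% of all genes) and 1 higher, 6 were separated downward (against 7.27%), DESeq2 called 5 lower (against 1.64%), and the median log2 fold change was -0.19. The summed CPM of the list overlapped between the ages, from 1975 to 3246 at 65 days and from 1915 to 3248 at 80 days. *ACTG2*, an actin of visceral smooth muscle, had 27.5 and 18.4 CPM in WT and 85.2 and 107 in CF at 65 days, and 11.7 and 11.5 in WT and 51.5 and 28.2 in CF at 80 days, a log2 fold change of -1.13 ± 0.21. CF values at 80 days were above WT values at 65 days, so age separated the libraries within each genotype only. The same held for *ACTA2* (-0.69 ± 0.20), *TAGLN* (-0.68 ± 0.15) and *TPM2* (-0.99 ± 0.18) in that each was separated in both genotypes with overlap between them. *RGS5*, a pericyte gene, went the other way, with 1.61 to 6.69 CPM at 65 days and 9.70 to 27.4 at 80 days, a log2 fold change of 2.19 ± 0.50. Pericyte and mesothelium genes did not follow it as a list. Of 13 tested, 2 were higher and 2 lower, against 8.37% and 9.39% of all genes, and the median was -0.12. In that list 1 gene was separated upward and 1 downward.

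Of 34 genes for fibrillar collagens and their matrix, 3 were higher and 4 lower, with 7 lower with the length trend removed, 12 lower without CF replicate 2 at 65 days and 2 lower without CF replicate 1. *THBS1*, a matrix glycoprotein gene, was separated upward at 0.90 ± 0.20, and the main collagen genes *COL1A1*, *COL1A2* and *COL3A1* had log2 fold changes of -0.16 ± 0.24, -0.10 ± 0.18 and -0.18 ± 0.16. Of 39 endothelial and angiogenic genes, 4 were higher and 4 lower (1 lower with the length trend removed), with a median of 0.03. *FLT1*, a VEGF receptor gene, was separated upward at 0.54 ± 0.18, and the Notch target *HEY1* downward at -0.66 ± 0.20.

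Nerve and neuroendocrine genes had the lowest median of the 35 lists, -1.03 (-0.70 in WT and -1.41 in CF). Of 24 tested, 8 were lower and none higher, and 3 were separated downward. Most were at low levels. *CHGA*, a protein of secretory granules in neuroendocrine cells, had 10.1 and 7.37 CPM in WT and 14.2 and 12.3 in CF at 65 days, and 5.69 and 4.99 in WT and 3.10 and 6.11 in CF at 80 days, a log2 fold change of -1.12 ± 0.28. *SNCG*, a synuclein of peripheral neurons, was at 17.8 and 2.42 CPM in WT and 6.86 and 6.90 in CF at 65 days, and at 0.632 and 2.22 in WT and 0.686 and 0.663 in CF at 80 days. *CRMP1* (chromosome 6, 102848648-102910970), which acts in axon guidance, was at 27.1 to 46.6 CPM at 65 days and 16.1 to 25.4 at 80 days, a log2 fold change of -0.84 ± 0.11. The receptor gene *NGFR*, used by nerve and airway basal cells, was separated downward at -2.36 ± 0.44.

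This group depended on single libraries. Without WT replicate 1 at 65 days, which was highest for *SNCG*, 4 members were lower, without WT replicate 2 at 65 days 14 were, and without CF replicate 1 at 65 days or either CF library at 80 days 5 were. None of 39 motile cilia genes passed an unadjusted p of 0.05 in either direction, but 15 were lower without WT replicate 2 at 65 days and 4 higher without WT replicate 1. The summed motile cilia level, 192 to 948 CPM at 65 days and 264 to 626 at 80 days, overlapped between the ages.

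Some markers of blood-derived cells were lower at 80 days. Of 30 macrophage and myeloid genes, 7 were lower and 1 higher, with a median of -0.34 (-0.47 in CF). With the length trend removed 7 were lower and 2 higher, and the median was -0.19 (-0.16 in CF). *CSF1R* (chromosome 5, 58820544-58851707), the receptor on which macrophages depend, had 24.2 and 29.5 CPM in WT and 33.0 and 27.1 in CF at 65 days, and 17.2 and 16.6 in WT and 13.1 and 10.8 in CF at 80 days, a log2 fold change of -1.0 ± 0.17. The scavenger receptor gene *MSR1* was also lower in every 80-day library, at -1.21 ± 0.27, whereas *LAPTM5*, an abundant gene of blood-derived cells, had -0.07 ± 0.16. The summed level of the list was 244 to 457 CPM at 65 days and 244 to 359 at 80 days, and 13 members were lower without WT replicate 1 at 65 days and 4 without WT replicate 2 at 65 days or CF replicate 2 at 80 days. Of 25 lymphocyte genes none was higher and 1 lower, with a median of -0.05 (0.23 in WT and -0.52 in CF). Of 19 red cell genes 3 were lower, against 9.39% of all genes, with *ALAS2*, the first enzyme of heme synthesis in these cells, at 9.61 to 37.4 CPM at 65 days and 7.31 to 13.7 at 80 days.

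Of 35 inflammatory and defense genes, 5 were higher and 3 lower. The complement genes *C5* and *C2* were separated upward at 0.61 ± 0.14 and downward at -1.92 ± 0.58. Of 29 interferon response genes 1 was higher and 1 lower, and the medians of the inflammatory and interferon lists were 0.00062 and 0.01. The inflammatory median was 0.23 in WT and -0.25 in CF.

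Of 91 cell cycle genes, 15 were lower and 3 higher, against 9.39% and 8.37% of all genes, and the median was -0.13. *UBE2C*, needed to leave mitosis, was at 82.1 to 120 CPM at 65 days and 54.9 to 73.8 at 80 days, and *TOP2A* at 281 to 419 and 325 to 397. Without WT replicate 1 at 65 days 25 members were lower, without CF replicate 1 at 80 days 5 were, and without WT replicate 2 at 65 days, CF replicate 2 at 65 days or WT replicate 1 at 80 days 7 to 8 were. Of 32 glycolysis and hypoxia genes 11 were lower and none higher, with a median of -0.34 (-0.10 in WT and -0.59 in CF), and *PGK1*, *TPI1* and the neuronal enolase *ENO2* were separated downward at -0.53 ± 0.16, -0.68 ± 0.21 and -0.64 ± 0.16. Of 27 antioxidant genes 9 were lower and none higher, with a median of -0.24 (-0.05 in WT and -0.51 in CF). With the length trend removed 6 antioxidant genes were lower and 2 higher, and the median was -0.11 (-0.15 in CF). The lower members of the glycolysis list numbered 5 without CF replicate 1 at 80 days, 6 without CF replicate 2 at 80 days or CF replicate 1 at 65 days and 7 without WT replicate 1 at 65 days. Those of the antioxidant list numbered 4 without either CF library at 80 days and 5 without CF replicate 2 at 65 days.

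**Figure D3:**
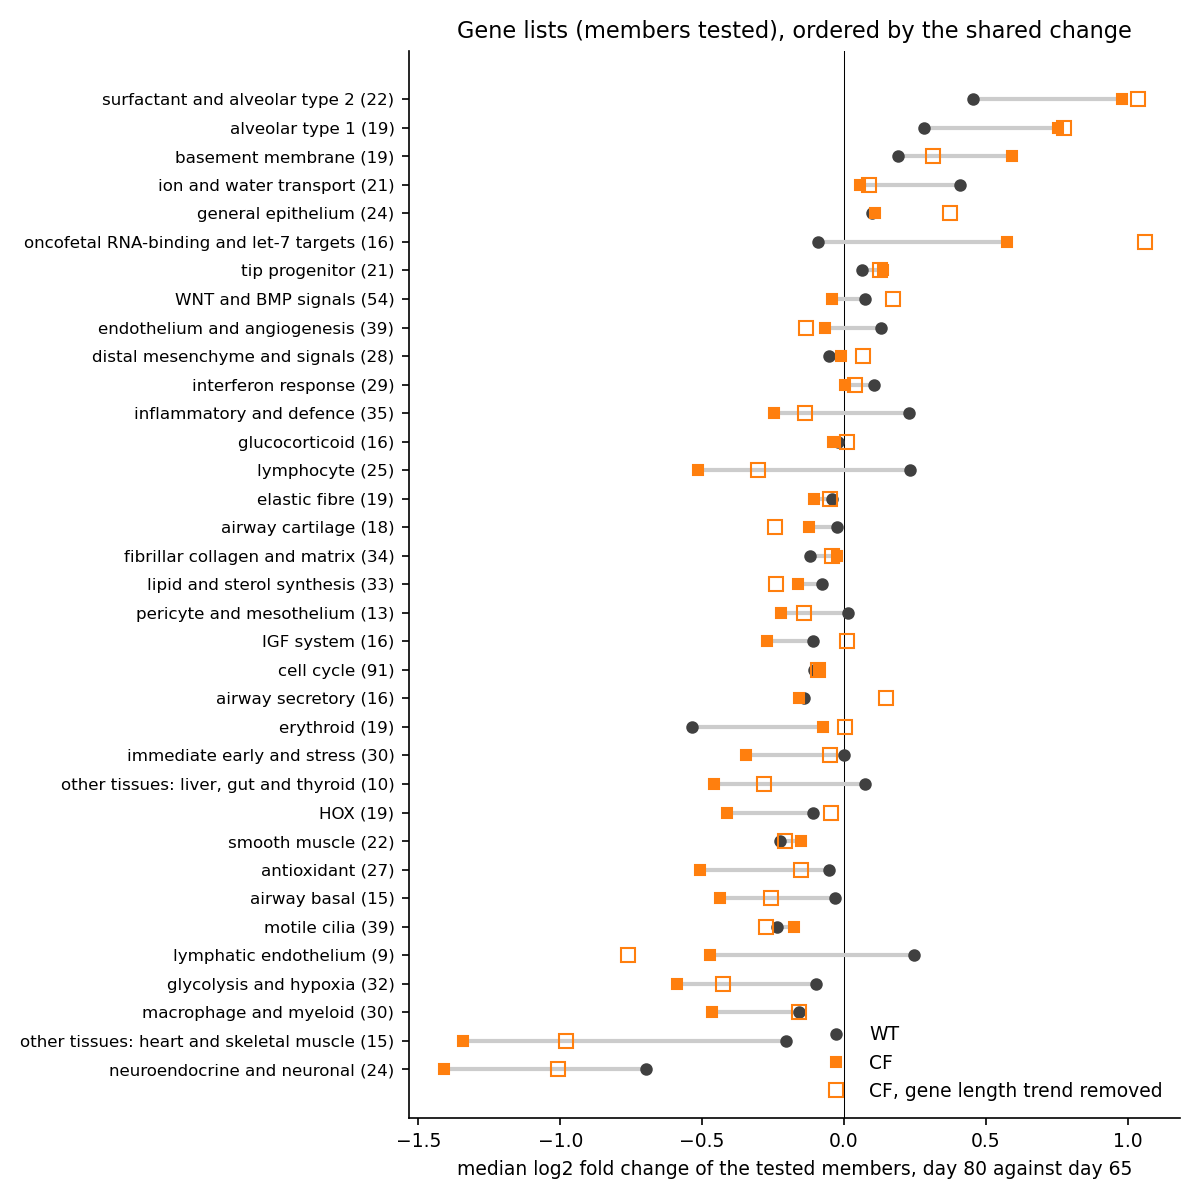
Median log2 fold change at 80 against 65 days of the tested members of 35 gene lists, ordered by the change shared by WT and CF, with WT as black points, CF as orange points and CF with the gene length trend removed as open points. The surfactant list (0.67) and the type 1 list (0.62) have the highest shared medians and the nerve list (-1.03) the lowest.

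Several genes with small p-values belonged to none of these groups. *SERPINF1* (chromosome 11, 22428591-22440689), which encodes the anti-angiogenic factor PEDF, had 73.0 and 59.5 CPM in WT and 59.6 and 51.9 in CF at 65 days, and 37.2 and 37.7 in WT and 26.5 and 24.2 in CF at 80 days, a log2 fold change of -0.98 ± 0.12. *SPRY3* (chromosome X, 76069331-76079740), of the Sprouty family of receptor tyrosine kinase inhibitors, showed little spread within an age. It was at 18.5 to 24.4 CPM at 65 days and 38.7 to 51.4 at 80 days, a log2 fold change of 1.08 ± 0.13. *KIAA1324L* was at 4.99 to 6.42 and 11.7 to 14.3 CPM, a log2 fold change of 1.21 ± 0.15. *PTGS1*, the constitutive cyclooxygenase of prostaglandin synthesis, was at 16.2 to 42.1 CPM at 65 days and 8.66 to 16.7 at 80 days, a log2 fold change of -1.22 ± 0.16.

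*RTL1*, an imprinted gene of retrotransposon origin, was at 2.19 to 7.31 CPM at 65 days and 0.790 to 1.11 at 80 days (-2.13 ± 0.42), and the imprinted growth inhibitor *CDKN1C* at 83.9 to 195 and 41.1 to 67.0 (-1.14 ± 0.27). The log2 fold change was -1.14 in WT and -3.06 in CF for *RTL1*, and -0.49 in WT and -1.79 in CF for *CDKN1C*. *LIN28B*, the fetal RNA-binding protein that blocks let-7 microRNAs, belongs to a list of 16 oncofetal genes of which 3 were higher and 2 lower. It was at 0.658 to 1.77 CPM at 65 days and 0.106 to 0.468 at 80 days (-1.97 ± 0.54). *MYL4*, a myosin light chain of fetal muscle, was at 1.59 to 7.78 CPM and then at 0.615 to 0.760. Of 15 heart and skeletal muscle genes tested, 3 were lower, *MYL4* included, and the summed level was 55.7 to 133 CPM at 65 days and 46.4 to 89.0 at 80 days, which overlap. Leaving out each library in turn gave 1 to 9 lower members, and the part of muscle tissue in the value of *MYL4* was not tested. *SPP1*, which encodes osteopontin, was at 259 and 158 CPM in WT and 470 and 305 in CF at 65 days, then at 73.0 and 131 in WT and 26.5 and 13.2 in CF, a log2 fold change of -2.66 ± 0.71, with -1.03 in WT and -4.29 in CF.

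One gene called by the fit with 1 mean per group did not show a shared change. *LOC105616860* was at 14.3 and 16.1 CPM in WT at 65 days and at 0.948 and 1.18 at 80 days, whereas CF had 14.0 and 10.3, then 13.9 and 13.0. The low values were thus those of the 2 WT libraries at 80 days.

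The extent to which WT and CF shared the change was then examined across genes. Of 13980 genes whose average log2 CPM was at least 1, 61.9% had the same sign in WT and CF, and the changes in the 2 genotypes, which share no library, had a Pearson r of 0.327 across these genes, which are not independent replicates. Of 272 genes with an unadjusted p below 0.05 in both genotypes taken alone, 234 (86.0%) had the same sign. Taken alone, CF had 6222 genes with an unadjusted p below 0.05 (33.1%) and WT 801 (4.26%), at adjusted p limits that 1455 and 1 genes passed.

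The change in CF went with gene length, which is the summed exon length and not the genomic span. In genes up to 1 kb the median log2 fold change was -0.758 in CF and -0.0634 in WT, and in genes above 8 kb it was 0.447 in CF and 0.0502 in WT. Spearman's rho with length across genes was 0.543 in CF and 0.134 in WT. With a smooth trend on gene length removed from each library before the same fit, 4318 genes had an unadjusted p below 0.05 in CF and 8 passed the adjusted limit. In the shared comparison 4 genes then passed the adjusted limit of 0.05 in edgeR, *GPRC5A*, *SFTPC* and *SFTPB* among them, and the surfactant list kept a median of 0.76. Depth, cloning and the donor genome went with genotype, and their part in the larger change in CF was not tested.

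**Figure D4:**
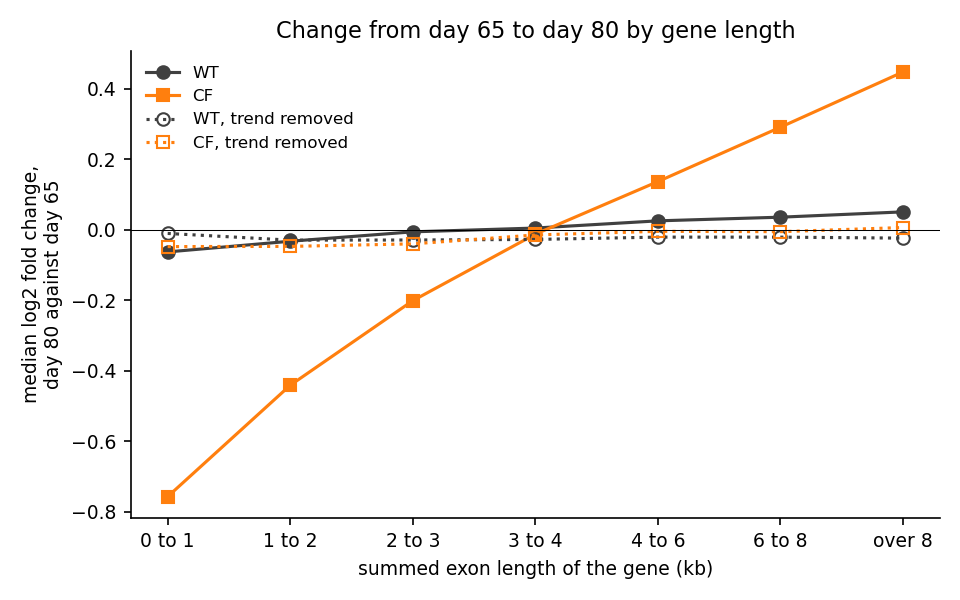
Median log2 fold change at 80 against 65 days (vertical axis) in 7 classes of summed exon length in kb (horizontal axis), for WT and CF. The CF medians run from -0.758 in the shortest class to 0.447 in the longest, and the WT medians stay between -0.0634 and 0.0502.

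Whether the change differed between the genotypes was tested directly. No gene passed an adjusted p of 0.05 for the difference between the change in CF and the change in WT in edgeR (0%), 3002 had an unadjusted p below 0.05 (16%), DESeq2 called 447, and the smallest adjusted p was 0.0825. The 3002 became 1986 (10.6%) with the length trend removed, 5286 without CF replicate 1 and 1987 without CF replicate 2 at 65 days, 1173 without CF replicate 1 at 80 days, and 1685 and 1614 without WT replicates 1 and 2 at 80 days. Among the genes above, the change in CF minus that in WT was -0.02 ± 0.50 for *SFTPB*, -0.29 ± 0.47 for *SFTPC*, 1.13 ± 0.33 for *SLC34A2*, 1.31 ± 0.20 for *LAMA3*, -1.48 ± 0.21 for *IGFBP2* and -3.25 ± 0.61 for *SPP1*. Without CF replicate 1 at 65 days 1489 genes passed, which leaves 1 CF library at that age, assumed to vary like the other groups. In simulated counts of this design, 10% of true differences of 1 on the log2 scale and 63% of true differences of 2 were recovered, so the comparison was not able to detect most differences of the smaller size.

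The same animals gave proximal lung, and the change in distal lung was compared with that in proximal lung with the animal as a block. Across 19539 genes none passed an adjusted p of 0.05 in edgeR (0%), 862 had an unadjusted p below 0.05 (4.41%), DESeq2 called 1, and the smallest adjusted p was 0.594. The 862 became 228 without CF replicate 1 at 80 days and 305 without CF replicate 2 at 65 days. The surfactant and type 1 genes with the largest distal values were also higher at 80 days in proximal lung. The proximal log2 fold changes were 2.27 ± 0.22 for *SFTPB*, 1.97 ± 0.24 for *SLC34A2* and 2.30 ± 0.30 for *GPRC5A*, and the distal minus proximal differences were -0.10 ± 0.18, 0.13 ± 0.22 and -0.20 ± 0.33. Proximal values were nearer to 0 for *SERPINF1* (-0.12 ± 0.35), *VGLL3*, a cofactor of TEAD transcription factors (0.22 ± 0.18), and *THBS1* (0.10 ± 0.21), but the differences of -0.67 ± 0.49, 0.84 ± 0.32 and 0.86 ± 0.34 did not pass the adjusted limit.

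The levels at 65 and 80 days were set beside those of distal lung at 100 and 120 days and at term, 4 libraries per age, scaled over all 20 distal libraries and given as mean ± SD with no test. Both WT libraries at 100 days carry the name of 1 animal, so the mean and SD of that age rest on 3 named animals and its SD may be too small. *SFTPB* was at 37.3 ± 9.70, 174 ± 59.1, 493 ± 54.2, 1134 ± 668 and 3143 ± 1062 CPM at the 5 ages, and *SFTPD* at 2.00 ± 1.45, 9.65 ± 6.98, 61.4 ± 3.27, 233 ± 132 and 639 ± 202. The means of both were higher at each later age, so the levels at 80 days were a small part of those at term. *SFTPA1*, low at 80 days, reached 19.5 ± 5.63 CPM at 100 days and 3252 ± 1516 at term. *LAMP3* behaved differently, with 279 ± 55.3, 611 ± 103, 687 ± 29.7, 344 ± 70.8 and 669 ± 169 CPM at the 5 ages, so its mean was lower at 120 days than at 80 and 100 days or at term.

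*GPRC5A* continued from 28.6 ± 6.58 CPM at 80 days to 405 ± 180 at term and *AQP5* from 1.81 ± 0.593 to 243 ± 84.2. *SOX9*, whose values overlapped at the first pair of ages, was at 62.2 ± 25.8 CPM at 100 days and 10.4 ± 3.10 at 120 days. *FGF10* peaked at 82.6 ± 13.0 CPM at 100 days and was at 22.2 ± 16.2 at term. The mean of *CFTR* was highest at 80 days, with 25.8 ± 7.11, 37.0 ± 6.94, 25.3 ± 5.50, 10.4 ± 3.18 and 7.96 ± 4.36 CPM, whereas *SCNN1A* was at 2.17 ± 0.671 at 80 days and 51.4 ± 24.1 at term.

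Among genes lower at 80 days, *WNT7B* went from 18.5 ± 3.42 CPM at 80 days to 4.07 ± 0.718 at term, *CRMP1* from 19.3 ± 4.08 to 0.583 ± 0.112 and *TMEM132C* from 18.9 ± 3.25 to 1.33 ± 0.794. *IGFBP2* was lowest at 120 days, at 5.55 ± 1.84 CPM. *CSF1R* was at 13.7 ± 2.86 CPM at 80 days, 12.8 ± 3.39 at 100 days and 65.9 ± 31.8 at term, above its level of 26.7 ± 3.68 at 65 days.

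**Figure D5:**
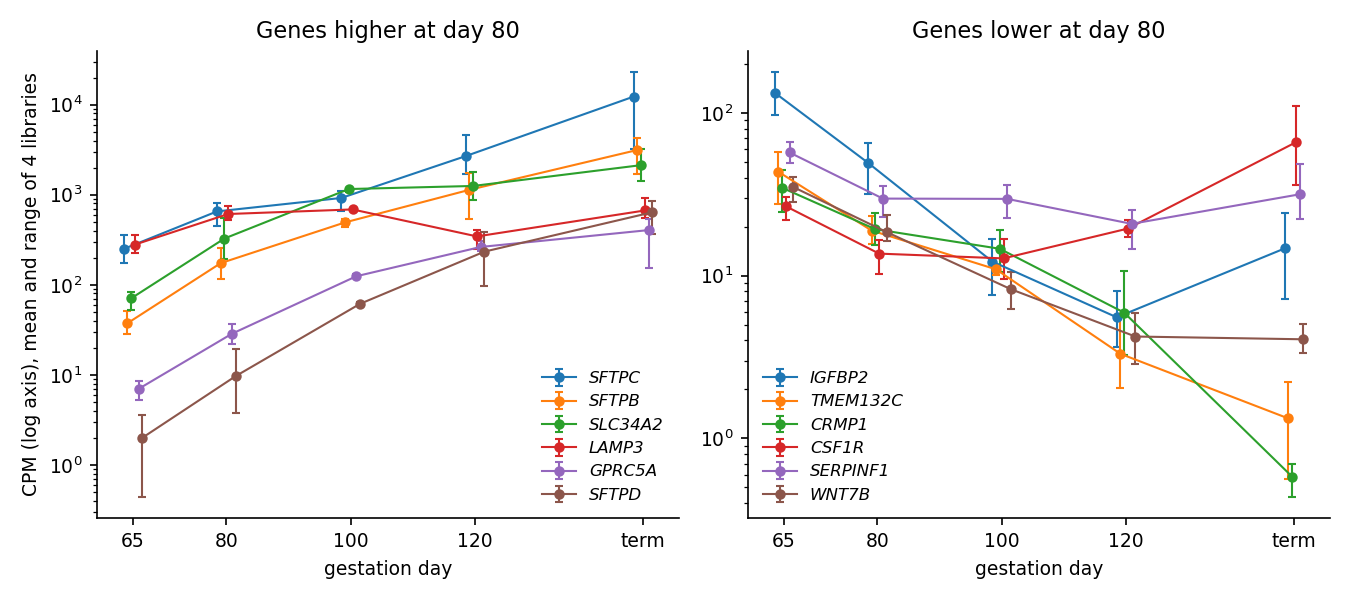
Mean CPM (log axis, scaled over 20 distal libraries) of 6 genes higher and 6 genes lower at 80 days, at 65, 80, 100 and 120 days and at term, with bars from the lowest to the highest of 4 libraries. *SFTPB*, *SFTPC*, *SFTPD* and *GPRC5A* have higher means at each later age, *CSF1R* rises to 65.9 at term, and *WNT7B*, *CRMP1* and *TMEM132C* are lowest at term.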

How the data were processed

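RNA from whole distal lung was sequenced as paired 100 bp reads from cDNA primed with oligo dT. Per the study's methods and the labels, the authors aligned reads with STAR (2.6 in the submitters' processing notes, a later release in the study's methods) to Oar_v4.0 and counted them per gene with featureCounts (1.6.3). Strand and mate settings and the annotation release are not given in the sources used here. The deposited values are raw counts for 24478 genes, and even numbers made up 75.6 to 82.2% of counts from 1 to 20, as counting each mate separately would give.

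The 8 libraries were filtered (filterByExpr, minimum count 10, minimum total 15), scaled by TMM and fitted in edgeR 4.0.16 (R 4.3.3, limma 3.58.1) with the quasi-likelihood test on genotype and age, with Benjamini-Hochberg adjustment over 18812 genes and an adjusted p limit of 0.05. The limits of the study (adjusted p of 0.001 and 1.5-fold) were a second rule, which 0 genes passed in edgeR. The difference between genotypes came from a fit with 1 mean per group, and that between regions from 16 libraries with the animal as a block. DESeq2 1.42.0, other scalings and filters, counts thinned to the smallest total, a length correction (lowess, span 0.3) and leaving out each library were alternatives. On simulated counts of the age comparison, 54% of changes of 1 and 95% of changes of 2 on the log2 scale were recovered, with 9 false calls. Genes were drawn independently, and changes were planted only in genes with an average log2 CPM of at least 1. The trends of single libraries with gene length were not simulated, so these shares need not hold for the real data. The limit for a value of 0 covers counting error only and takes reads as independent. It would be higher if each mate was counted separately. SE and SD include the spread between libraries.

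Groups came from the labels. The comparison, the 35 gene lists and the tests were chosen with earlier results of these data known. The naming rule took up to 10 genes per direction with the largest change among those past the adjusted limit, separated in both genotypes and at an average log2 CPM of at least 1. As no gene passed, it was applied at an unadjusted p of 0.001, and list members and the genes of the fit with 1 mean per group were named after their values were seen. Positions are those of the deposited tables. *SPP1* is given none, since its entry spans several loci. The values of 1 gene are not reported here.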

Additional observations from a re-analysis of the deposited data

Results flagged for a closer look

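In 3 genes, chosen after their values were seen, both libraries at 80 days moved one way in WT and both moved the other way in CF. Such a split was seen in 1416 of the 18812 genes tested, so it is not particular to these 3. The choice was limited to genes with a symbol and an average log2 CPM of at least 1. Among those, the 3 had the smallest unadjusted p for the difference between genotypes. *ABI3BP*, a matrix-binding protein gene, was at 378 and 445 CPM in the WT libraries at 65 days, then 338 and 353, and in CF at 316 and 289, then 716 and 755, so the change in CF exceeded that in WT by 1.54 on the log2 scale. *ASPA* (aspartoacylase) was at 6.25 and 8.18 CPM in WT and then 1.20 and 0.993, and in CF at 1.3 and 0.801, then 2.41 and 3.04, a difference of 4.09. *HAS3*, which makes hyaluronan, was at 37.1 and 38.0 CPM in WT and then 27.8 and 30.8, and in CF at 23.1 and 18.3, then 49.0 and 42.3, a difference of 1.5. The difference did not pass in edgeR (adjusted p 0.275 for each). Over 16 alternatives it was 1.33 to 1.71, 3.78 to 4.48 and 1.21 to 1.67, passing in 2 alternatives for each gene, with adjusted p up to 0.729. The gap test for a single library within its group needs at least 4 libraries and was not run.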

How the results depend on the processing

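The 0 genes called for age in edgeR remained 0 with RLE scaling, without the legacy setting, with counts thinned to the smallest total, with counts halved and in a test against a 1.5-fold limit. Leaving out each library gave 0 to 1 (1, *SFTPB*, without WT replicate 2 at 80 days). The count was 10 with no filter on low counts, 566 in DESeq2, 26 with 1 mean per group, 39 with the error estimated over all 20 distal libraries (2 of them labelled as 1 animal, which can understate the error), 4 with the length trend removed and 19 with both the length trend removed and 1 mean per group. At the limits of the study DESeq2 called 79 genes. For the difference between genotypes the count was 1 with no filter, 447 in DESeq2 and 0 to 1489 over the left-out libraries (1489 without CF replicate 1 at 65 days, 2 without WT replicate 2 at 65 days and 1 without WT replicate 1 at 80 days). DESeq2 called 1 gene for the difference between regions. The cause of these differences was not tested.

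Same-numbered libraries deviated together in some groups and apart in others (correlations of -0.392 to 0.397), so the numbers do not pair animals. With the replicate number as a block, 0 genes were called for age and 3 for the difference between genotypes.

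For 113 named genes, 2357 of 2372 alternative values kept their direction. The reversed values belong to 6 genes. Within CF alone they were 0.15 for *LOC105616860*, -0.0636 for *ANO1* and -0.0099 for *SCNN1B*, and within WT alone -0.0084 for *NKX2-1* and -0.31 for *SOX9*. With the length trend removed *SOX9* was at -0.0202, and at -0.0222 with 1 mean per group as well. Over left-out libraries *NKX2-1* ran from -0.0537 to 0.175 (below 0 without WT replicate 1 or CF replicate 2 at 80 days), *AGER* from -0.0195 to 0.340 (below 0 without WT replicate 1 at 80 days) and *SOX9* from -0.0719 to 0.167. Each group held 2 libraries and WT libraries were shallower than CF libraries, so low genes such as *SFTPA1* and *LIN28B* were measured least well in WT.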

Other observations

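The heat shock gene *HSPA1A* was at 439 and 976 CPM in the WT libraries at 65 days, then 344 and 515, and in CF at 204 and 263, then 1954 and 2688, so the 2 CF libraries at 80 days stood above the other 6. CF replicate 2 at 65 days had the lowest values of the 8 libraries for *IGF2R* (30.0 CPM, against 228 to 631 in the others), the imprinted gene *PEG3* (17.1 against 102 to 346) and the glucocorticoid receptor *NR3C1* (18.9 against 46.0 to 111). The mineralocorticoid receptor gene *NR3C2* was higher in every library at 80 days, with 4.39 to 7.78 CPM at 65 days and 9.08 to 13.1 at 80 days, and *DDIT4*, a stress-induced inhibitor of mTOR signaling, was lower in every one, with 72.6 to 116 and 29.6 to 62.6 CPM. *HOXB6* was separated downward in both genotypes (-0.70 ± 0.19), whereas *HOXA5* overlapped (-0.10 ± 0.20). All were named after their values were seen.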
